A study of Homo sapiens with 4 samples.

Results

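The regions described here are 1669 stretches of chromatin inside protein-coding genes that were called as open in both ATAC-seq lists of DMSO-treated cells and in neither list of I-BET151-treated cells. They were chosen by the calls themselves. Peaks of the 4 deposited lists sharing 1 bp or more were joined into 164301 merged regions, and a region was kept when it had a peak in both DMSO lists and none in the I-BET151 lists, when its highest summit lay inside a protein-coding gene body, and when that summit was more than 3 kb from every protein-coding gene start and more than 1 Mb from a chromosome end. Of all merged regions 3896 were lost in this sense, which is 2.37% of the merged regions. The intragenic ones made up 42.8% of them, beside 1862 between genes, 217 near gene starts and 148 near chromosome ends.

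The cells were pancreatic progenitors differentiated from MEL1 cells, an established human embryonic stem cell line that carries GFP at the insulin gene, and every library came from this line. All groups were kept for 7 days in EF6 medium, which contains growth factors (EGF and bFGF) and an inhibitor of the TGF-β receptor. The DMSO group received the solvent, and the I-BET151 group received 1 μM I-BET151 in addition (EF6I medium). There were 2 libraries per group, made from 50000 cells each, and no statement was found that same-numbered libraries were prepared together or that the cultures were independent.

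ATAC-seq marks open chromatin by the sites at which the Tn5 transposase inserts sequencing adapters. Open regions inside genes and away from their starts are mostly enhancers, where transcription factors bind short DNA motifs, and others are insulators or starts of alternative transcripts. I-BET151 blocks the bromodomains of the BET proteins, which read acetylated histones at such enhancers and recruit the elongation factor P-TEFb to promoters. Pancreatic progenitors are known for enhancers bound by FOXA, GATA, HNF1, HNF6 (ONECUT1) and PDX1. AP-1 and TEAD factors act at enhancers of many epithelial cells in culture.

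The libraries differed in ways that bear on every count below. The background of the lists corresponded to 38.7 and 36.6 M reads with DMSO and to 12.5 and 16 M reads with I-BET151, whereas regions called in all 4 lists had a median of 2.97 and 4.75 times as many reads at the summit per M reads in I-BET151 replicates 1 and 2 as in the DMSO libraries. The DMSO replicate 2 list held 38295 peaks and the other 3 held 82568 to 111324. The shortest peak, taken here as the read extension of each list, measured 200 bp in the lists of replicate 1, but 233 bp in DMSO replicate 2 and 256 bp in I-BET151 replicate 2. The study's methods state an extension of 200 bp, so the extension may have differed from the stated one. At the stated value the estimated reads of both replicate 2 libraries would be higher. Of 10 pancreatic progenitor markers, 7 had a region called in all 4 lists within 3 kb of the start (among them PDX1, NKX6-1, SOX9, FOXA2, GATA6 and MNX1). None of 9 endocrine markers and none of 4 endothelial markers did, against 4 of 10 mesenchymal, 3 of 4 intestinal, 2 of 5 liver, 2 of 4 neuronal and 2 of 4 pluripotency markers. The study's methods describe feeder cells for the expanding progenitor cultures, and the part of other cells in these results was not tested.

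The sequence at the summits of the strongest members is shown first, because many of these members lay in repeated DNA. A member's strength is the lower of its 2 DMSO fold enrichments, that is the read pileup at the summit over the local background. Each window spans 100 bases on both sides of the highest summit in hg38, plus strand. In the 3 windows that follow, capitals mark bases inside 12-base words that recur within 500 bp of the summit.

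TTC34, chr1:2684097-2684297: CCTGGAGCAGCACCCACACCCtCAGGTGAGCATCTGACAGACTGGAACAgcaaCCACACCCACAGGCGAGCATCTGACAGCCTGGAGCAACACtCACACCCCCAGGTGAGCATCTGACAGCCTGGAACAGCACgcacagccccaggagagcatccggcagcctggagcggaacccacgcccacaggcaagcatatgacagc

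CRLF2, chrX:1198114-1198314: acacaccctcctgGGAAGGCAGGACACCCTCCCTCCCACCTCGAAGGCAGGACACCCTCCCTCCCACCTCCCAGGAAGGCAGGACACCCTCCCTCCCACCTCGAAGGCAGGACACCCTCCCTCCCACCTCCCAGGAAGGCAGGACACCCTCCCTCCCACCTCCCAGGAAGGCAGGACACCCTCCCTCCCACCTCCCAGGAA

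PPFIA1, chr11:70371380-70371580: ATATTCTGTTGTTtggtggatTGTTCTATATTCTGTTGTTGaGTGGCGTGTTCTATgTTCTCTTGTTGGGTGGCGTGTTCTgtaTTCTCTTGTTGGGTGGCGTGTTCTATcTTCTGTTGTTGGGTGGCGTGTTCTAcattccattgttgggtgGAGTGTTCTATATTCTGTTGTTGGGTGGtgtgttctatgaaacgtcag

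The next 3 windows come from strong members with little or no local repeat. Capitals mark the only match to the E-box CAGCTG in TBCE and to the GATA factor motif AGATAA, on either strand, in PRUNE2 and COL5A2.

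TBCE, chr1:235411856-235412056: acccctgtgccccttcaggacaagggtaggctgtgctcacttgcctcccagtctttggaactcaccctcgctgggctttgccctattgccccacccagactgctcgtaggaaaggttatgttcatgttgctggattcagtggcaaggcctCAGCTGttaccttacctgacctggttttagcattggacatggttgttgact

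PRUNE2, chr9:76667527-76667727: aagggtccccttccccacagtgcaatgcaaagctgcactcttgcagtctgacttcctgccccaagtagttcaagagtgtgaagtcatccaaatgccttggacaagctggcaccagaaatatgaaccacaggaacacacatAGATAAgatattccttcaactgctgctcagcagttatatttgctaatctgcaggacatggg

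COL5A2, chr2:189096904-189097104: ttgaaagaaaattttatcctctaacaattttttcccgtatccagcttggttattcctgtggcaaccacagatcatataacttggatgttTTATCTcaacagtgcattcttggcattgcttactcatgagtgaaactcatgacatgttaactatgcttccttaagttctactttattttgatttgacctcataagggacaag

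The strongest member lay in intron 6 of TTC34, a gene for a tetratricopeptide repeat protein on chromosome 1, at chr1:2681375-2686472. Its fold enrichment was 8.58 in DMSO replicate 1 and 10.2 in DMSO replicate 2, from 58 and 66 reads. Scaled to the depth of the I-BET151 libraries, the lower of these would give 18.7 and 23.99 reads, against lowest pileups of 5 and 6 reads in those lists, and no peak was called there. TTC34 also held more members than any other gene, 5 within 93.4 kb, with 62.2% to 64.2% GC in their windows. Of these, 2 had over 50% of the window in recurring words and 3 had over 50% of their 24-base words in more than 1 copy in the genome.

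In MFSD14B, a gene for a membrane transporter on chromosome 9, the member in intron 2 (chr9:94417844-94418186) had 26 and 29 reads and folds of 6.99 and 7.21. The words of its window had a median of 131 copies in the genome. The member of ARHGAP32, a GTPase-activating protein gene on chromosome 11, reached folds of 6.28 and 8.57 from 27 and 44 reads (chr11:129193109-129193448), and 38.2% of its words had more than 1 copy. At each of these 3 strongest members the pileup was higher in DMSO replicate 2.

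DHRSX, which encodes a dehydrogenase of the dolichol pathway, and CRLF2, the receptor chain for the cytokine TSLP, lie in the pseudoautosomal region that X and Y share, so every word of their windows has a further copy on Y. The DHRSX member (chrX:2314304-2314642, intron 3) had 24 and 27 reads and folds of 6.22 and 6.70. The CRLF2 member (chrX:1198021-1198723, intron 5) had 27 and 23 reads and folds of 7.24 and 5.77, with 93.2% of its window in recurring words. Of the 9 members on X, 7 lay in pseudoautosomal genes, where 12 intragenic regions had been called in both DMSO lists. Elsewhere on X, 2 of 119 such regions were members.

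The member of DCLK1, a microtubule-binding kinase gene and a marker of tuft cells (chr13:35957899-35958455), had 28 and 31 reads, and that of RIN2, a RAB5 exchange factor gene (chr20:19924324-19924669), had 31 and 29 reads. Folds at both members were between 5.34 and 5.39 in both libraries, and 59.0% and 65.8% of the windows were recurring words. PPFIA1, which encodes the scaffold liprin-α1, had its member in intron 21 (chr11:70371309-70371616), with 21 and 29 reads and folds of 5.34 and 6.36. These introns thus resembled TTC34 in carrying local repeats at the summit.

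Of the 12 strongest members, 6 had over 20% of the window in recurring words and 5 had over 50% of their words in more than 1 copy, and 3 had neither above 20%. These 3 were at PRUNE2, TBCE and COL5A2. PRUNE2, a gene expressed in neurons, had 21 and 22 reads in intron 9 with folds of 5.31 and 5.53 (chr9:76667334-76667790). TBCE, a tubulin folding cofactor gene that overlaps ENSG00000285053, had 35 and 24 reads and folds of 7.00 and 5.24 (chr1:235411762-235412148). COL5A2, a fibrillar collagen gene, had 24 and 21 reads in intron 6 with folds of 6.47 and 5.19 (chr2:189096845-189097204). GALM, a galactose mutarotase gene, had 33 and 26 reads in intron 4 and folds of 6.97 and 5.32 (chr2:38722031-38722377), and 51.7% of its words had more than 1 copy.

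**Figure D1:**
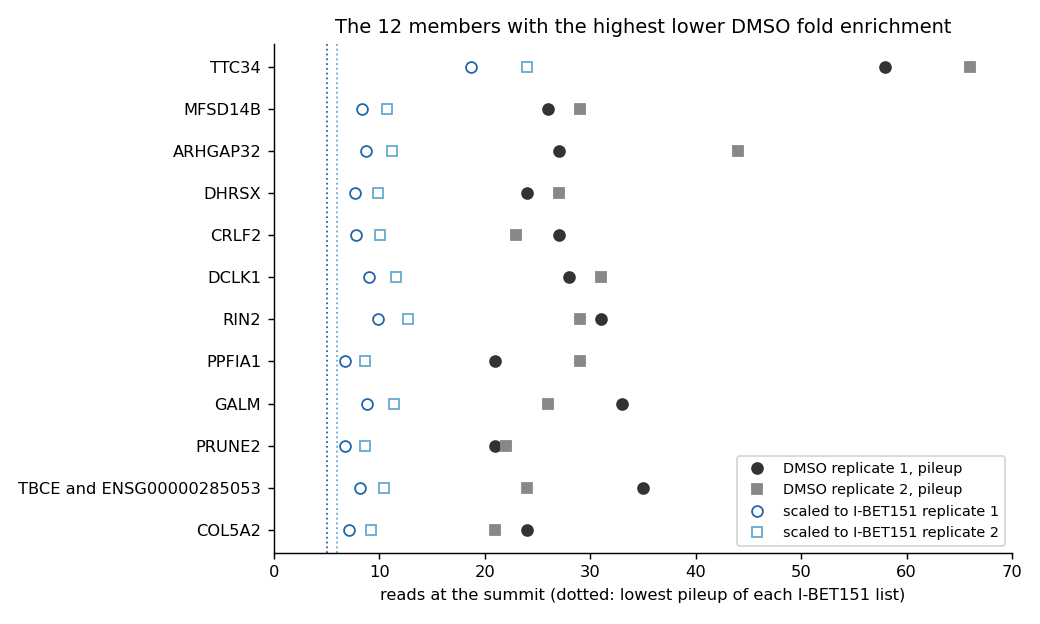
Reads at the summit of the 12 members with the highest lower DMSO fold enrichment, in the 2 DMSO libraries (filled) and scaled to the depth of the 2 I-BET151 libraries (open), with the lowest called pileup of each I-BET151 list as dotted lines at 5 and 6 reads. The lower of the 2 DMSO pileups per M reads was scaled. All filled points lie between 21 and 66 reads, and all open points lie to the right of the dotted line of their own library. No peak was called there with I-BET151. The lines show the lowest pileup of any peak in a list and are not the call threshold at each member. At the lower Poisson limit of the scaled pileup, 1 of all 1669 members would have been callable.

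These strong members were not typical. Over all 1669 members the median fold enrichment was 3.73 in DMSO replicate 1 (lowest 2.31, highest 8.58) and 3.32 in DMSO replicate 2 (lowest 2.26, highest 10.2). Median pileups were 18 and 16 reads. Within their own lists the members had a median percentile of 43.5 and 22.6 by fold, while intragenic regions called in all 4 lists had 78.5 and 57.3. The fold was higher in DMSO replicate 1 for 1331 members, and across members the log2 folds of the 2 libraries correlated with a Pearson's r of 0.60 and a Spearman's rho of 0.57, members not being independent replicates. In both lists 16 members exceeded a fold of 5, and 23 members had a −log10 p of at least 10. Repeated windows (over 50% recurring or over 50% multi-copy words) made up 14 of those 23, or 60.9%. They made up 2.40% of all members, 0.238% of intragenic regions called in all 4 lists and 0.872% of all merged regions.

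The background for a loss was the 11793 intragenic regions called in both DMSO lists, of which 14.2% were members, 14.6% were called in exactly 1 I-BET151 list and 71.2% in both. Of those called in exactly 1 I-BET151 list, 1670 were in the list of replicate 2 and 53 in that of replicate 1, the shallower library. When the regions were put into 10 equal groups by their lower DMSO fold, 36.2% of the weakest group and 0.34% of the strongest group were members. The rule used these values, so the fall is a description. Just inside the rule, the weakest member, in PRDM11, had folds of 2.57 and 2.26. Just outside it by the calls, the region with the weakest I-BET151 peak, at EEF1A1, had folds of 2.96 and 3.15 with DMSO and 2.38 in I-BET151 replicate 2. By position, the nearest member, in RAB19, lay 3060 bp from a start with folds of 4.13 and 3.34, and a lost region in OTUD7A with folds of 3.37 and 3.38 was left out at 2978 bp.

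Whether an unchanged region of this strength could have been called with I-BET151 depended on the scaling. The lower of a member's 2 DMSO pileups per M reads was scaled, without correction for read extension. Scaled by the number of reads alone, the median member would have had 5.11 and 6.56 reads at the summit in the I-BET151 libraries, and 30.9% of the members would have passed the weakest p-value of at least 1 of these lists. From the mean of the 2 DMSO pileups 54.1% would have passed. Scaled also by the shift seen in the regions called in all 4 lists, the medians were 15.2 and 31.2 reads and 100% would have passed. Only regions called with I-BET151 enter that shift, and how far this selection raised it was not tested. The share of a lower signal and of lower depth in the missing calls was not tested.

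Base composition was not used by the rule. The median GC content of their windows was 54.2%, against 49.3% in intragenic regions called in all 4 lists, 47.3% in those called in exactly 1 I-BET151 list and 44.8% in those gained with I-BET151 (found in the 2 I-BET151 lists and absent from the DMSO lists). Lost regions between genes, at 53.7%, and near gene starts, at 56.7%, were close to the members. Of the intragenic DMSO regions with at most 35% GC, 5 of 238 were lost (2.101%, 95% Wilson interval 0.901 to 4.82). The share rose to 29.0% at 55% to 60% GC (26.8 to 31.3, 450 of 1552) and was 5.60% above 65% GC (4.47 to 6.99, 72 of 1286). Among regions with a lower DMSO fold at or under the median, it went from 5.38% through 40.4% to 10.3% over the same bins. The intervals cover counting error only.

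Windows above 65% GC held a median of 19 CpG dinucleotides, as CpG islands do, while the bin with the largest share lost held 4. At equal GC the members were also poorer in CpG. Between 50% and 60% GC they had 2.70 CpG per window, and the intragenic regions called in all 4 lists had 4.19. At 60% to 65% GC the values were 5.25 and 8.79. Regions called in exactly 1 I-BET151 list, with 2.83 and 4.85, were near the members in this respect.

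The regions called in all 4 lists were not used by the rule and show how signal varied with GC between the libraries. Their median log2 ratio of I-BET151 to DMSO reads per M at or below 35% GC was 1.31 for the libraries numbered 1 and 2.30 for those numbered 2, and 1.31 and 2.12 at 55% to 60% GC. Above 65% it was 1.74 and 2.25. Gained regions made up 21.3% of all intragenic regions at or below 35% GC and 12.2% at 55% to 60%. Composition effects of library preparation were not tested.

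The share lost differed between chromosomes. It was highest on chromosome 19, where 149 of 490 intragenic DMSO regions were members (30.4%, 26.5 to 34.6), and on chromosome 22 (30.0%, 24.1 to 36.5, 62 of 207). Chromosomes 16 and 17 followed with 21.9% and 20.4%. The lowest shares were 6.87% on X, 9.04% on chromosome 4 and 9.39% on chromosome 14. From the GC content and DMSO fold of its regions alone, at the rates of the whole set, chromosome 19 would have had 21.0% and chromosome 22 21.7%, and both values lay below the observed intervals. The corresponding 18.9% for chromosome 16 and 21.3% for chromosome 17 lay inside them. On chromosomes 11 and 14 the departure was the other way, with 15.6% against an observed 12.1% (9.85 to 14.9) and 13.2% against 9.39% (6.89 to 12.7).

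**Figure D2:**
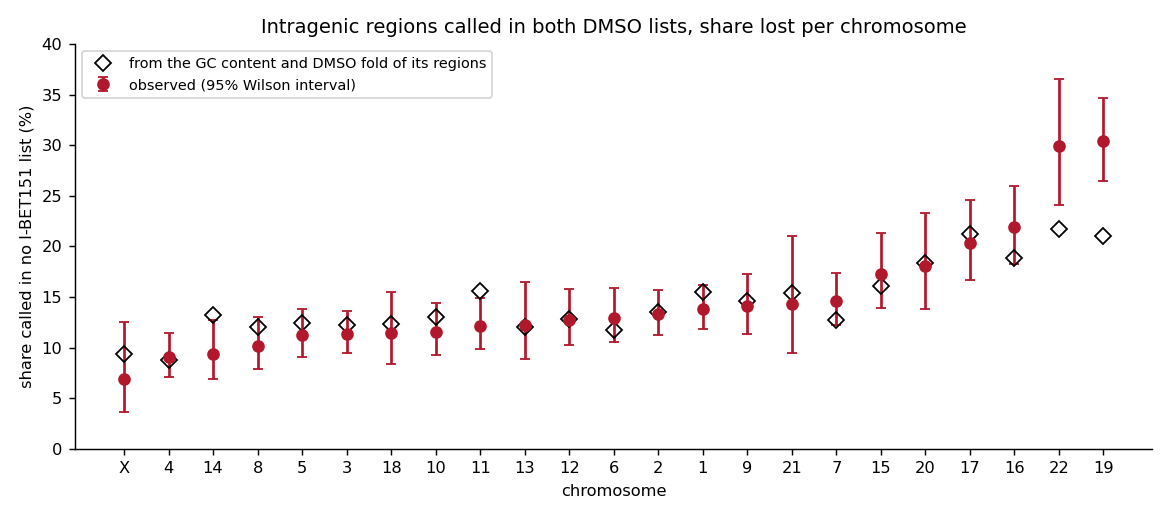
Share of intragenic regions called in both DMSO lists that was called in no I-BET151 list, per chromosome (filled points with 95% Wilson intervals), and the share that the GC content and DMSO fold of its regions would give (open diamonds). Chromosomes 19 and 22 lie highest, at 30.4% and 30.0%, above their diamonds at 21.0% and 21.7%.

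Most members lay in introns. In the canonical transcript of the host gene, 287 summits were in the first intron and 1003 in another intron, together 77.3% (75.2 to 79.2), and 198 lay outside the canonical transcript but inside the gene body. Coding exons held 120 members, or 7.19% (6.05 to 8.53), against 2.38% (2.08 to 2.73) of the intragenic regions called in all 4 lists, 2.55% (1.91 to 3.41) of those called in exactly 1 I-BET151 list and 2.14% (1.91 to 2.41) of the gained ones. The interval of the members did not overlap those of the other 3 groups, which were not matched to the members for GC content or DMSO fold. The share over all intragenic regions was not taken. A first intron was less frequent among members, with 17.2% (15.5 to 19.1) against 22.3% (21.4 to 23.2) for regions called in all 4 lists. Untranslated exons held 61 members, or 3.65%.

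The members in coding exons had a median GC content of 59.2%, and those in introns had 53.7%. All intragenic regions called in 4 lists had 49.3%, without matching for DMSO fold. Starts of other transcripts were within 500 bp of 7.91% of the members (6.71 to 9.30) and of 21.3% of the regions called in all 4 lists (20.5 to 22.2). Regions called in exactly 1 I-BET151 list, at 6.33% (5.27 to 7.58), and gained regions, at 7.21%, were close to the members. Starts of lncRNA genes were as near for 0.539% of the members and 3.90% of the regions called in all 4 lists. The median member was 33.1 kb from the nearest protein-coding gene start, whereas gained intragenic regions were 65.1 kb away and lay in longer genes (medians 210 and 115 kb).

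Several motifs of enhancer-binding factors were less frequent in the members than in the other groups. The set of 7 motifs was assembled with earlier results known, and it holds the general AP-1 motif and leaves out that of SOX factors. A window with at least 1 of 7 motifs (AP-1, FOXA, GATA, HNF1, HNF6, HNF4 or homeobox) was found in 17.02% of the members, 38.9% of the intragenic regions called in all 4 lists, 45.7% of those called in exactly 1 I-BET151 list and 39.4% of the gained ones. All merged regions had 33.6%. Each window lay at the highest-fold summit of any list, a DMSO summit for members and an I-BET151 summit for gained regions. In regions called in all 4 lists it could come from either group, and the effect of this placement was not tested. When the rule was applied without I-BET151 replicate 2, the regions it then chose had 32.6%. That choice also takes in the 1670 regions called with I-BET151 only in replicate 2, which belong to the group at 45.7%. The low share thus depends on leaving out the regions called in that library. Because these motifs are rich in A and T, the shares were also standardised to the GC content of the members, which gave 33.6%, 35.4%, 26.0% and 24.3% in the same order. The members were thus lower than each of these groups also at equal GC. The 1862 lost regions between genes were close to the members, with 16.4% holding any of the 7 motifs, 26.3% the ZEB and SNAI E-box described below and a median GC content of 53.7%, so these features were not particular to lost regions inside genes.

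Among single motifs, exact matches on either strand within 100 bp of the summit were counted. The AP-1 motif TGANTCA was present in 6.83% of the members (5.72 to 8.14), in 14.8% of regions called in all 4 lists and in 20.3% of those called in exactly 1 I-BET151 list, with 11.01% in all merged regions. At the GC content and DMSO fold of the members the latter groups would have had 13.5% and 17.4%. The GATA factor motif AGATAA was present in 6.23% (5.17 to 7.49) against 15.6% and 16.9%, or 11.6% and 11.1% at the members' GC content, and in 14.2% of all merged regions. The FOXA motif TGTTTAC was present in 2.04% (1.46 to 2.83) against 5.71% and 6.62%, or 4.68% and 4.501% at equal GC, and in 4.57% of all merged regions. The motif of HNF6, ATTGATT, was in 1.14% of the members (0.730 to 1.77) and 4.94% and 4.35% of the others, or 3.29% and 2.26% at equal GC, and in 4.41% of all merged regions. For HNF1 (GTTAATNAT) the shares were 0.300% (0.128 to 0.699), 2.75% and 1.80%, with 1.51% in all merged regions, and at equal GC 1.63%, 1.05% and 0.678%, of which the last was inside the interval of the members. For homeobox factors of the PDX1 and NKX type (TAATTA) they were 1.56% (1.06 to 2.27), 4.64% and 4.93%, with 4.72% in all merged regions, and at equal GC 2.94% and 2.08%, of which the latter was inside the interval of the members. The consensus of CTCF, which forms insulators and loop anchors, was in 0.479% of the members (0.243 to 0.943), in 2.39% of regions called in all 4 lists, in 4.21% of gained regions and in 1.86% of all merged regions. In regions called in exactly 1 I-BET151 list it was in 1.16% (0.753 to 1.79), an interval that overlapped that of the members, or 1.91% at equal GC.

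The E-box CAGGTG, bound by ZEB and SNAI repressors, went the other way. It was present in 25.2% of the members (23.1 to 27.3), 15.1% of the regions called in all 4 lists, 18.8% of those called in exactly 1 I-BET151 list and 16.5% of all merged regions. At the members' GC content the regions called in all 4 lists would have had 18.0% and those called in exactly 1 list 24.4%, so that the last group was within the interval of the members. The other E-box, CAGCTG, was in 17.4% of the members (15.7 to 19.3) and in 14.7% of the regions called in all 4 lists, or 18.3% at equal GC, with 13.6% in all merged regions. The NFI motif TTGGCA was in 12.04% (10.6 to 13.7) against 9.32% and 11.4%, and 10.7% of all merged regions. The TEAD motif GGAATG, at 14.3% (12.7 to 16.02), and the SOX motif ACAATGG, at 2.82% (2.12 to 3.72), stood beside 15.0% and 2.90% of all merged regions and 16.4% and 3.18% of the regions called in all 4 lists. The KLF and SP motif GGGCGGG was in 2.46% of the members and 10.9% of the regions called in all 4 lists, against 6.31% of all merged regions. Regions called in exactly 1 I-BET151 list had 3.60% and gained ones 3.63%, or 7.42% and 6.05% at equal GC. A match is a stretch of letters and not a measured binding site.

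Of the remaining motifs, that of HNF4 (CAAAGTCCA) was in 0.419% of the members (0.203 to 0.863), 1.14% of the regions called in all 4 lists, 3.42% of those called in exactly 1 I-BET151 list and 0.990% of all merged regions. The ETS motif CCGGAAGT was in 0.120% of the members (0.0329 to 0.436), 0.845% of the regions called in all 4 lists and 0.593% of all merged regions. Regions called in exactly 1 I-BET151 list, at 0.116%, and gained ones, at 0.195%, were inside the interval of the members. STAT (TTCNNNGAA) was in 4.37% of the members and 6.15% of all merged regions, TCF and LEF (ATCAAAG) in 2.22% and 2.94%, and CEBP (TTGCNNCAA) in 1.14% and 1.76%. At the members' GC content all merged regions would have had 5.15%, 2.22% and 1.47%, each inside the interval of the members. GRHL (AACCNGTT) was in 0.899% and 1.40%, RBPJ (GTGGGAA) in 4.49% and 4.86%, and RUNX (TGTGGTT) in 3.65% and 4.06%. For these, all merged regions at equal GC would have had 1.16%, 5.72% and 3.78%, of which only the RBPJ value lay outside the interval of the members. The 114 members with an AP-1 match were the exception in a set with few such motifs. The 4 strongest that lay in introns, outside repeated windows and with the match at least 30 bases from the window's end are shown with the match in capitals and 30 bases on each side. These 4, and the windows of CRLF2, PRUNE2 and COL5A2 above, were chosen for display after their values were seen.

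STK32B, chr4:5180388-5180454: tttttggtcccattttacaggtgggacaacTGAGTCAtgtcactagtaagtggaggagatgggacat

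ELF1, chr13:40964099-40964165: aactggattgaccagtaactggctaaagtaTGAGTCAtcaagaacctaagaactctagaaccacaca

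FPGT-TNNI3K, chr1:74317853-74317919: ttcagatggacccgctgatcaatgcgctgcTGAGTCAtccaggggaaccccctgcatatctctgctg

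AGBL1, chr15:86830439-86830505: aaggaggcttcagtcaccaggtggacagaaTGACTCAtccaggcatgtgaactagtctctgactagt

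The features above were also taken in the members that should have been callable by reads alone, scaled from the lower DMSO pileup. In the 487 members whose scaled pileup would have passed the threshold of both I-BET151 lists, the median GC content was 54.2%, the share with any of the 7 motifs 19.9% (16.6 to 23.7) and that with the ZEB and SNAI E-box 26.9%. In the other 1182 members the values were 54.7%, 15.8% (13.8 to 18.0) and 24.5%. Repeated windows made up 6.16% of the callable and 0.846% of the other members. Among the 23 members with a −log10 p of at least 10 in both DMSO lists, the median GC content was 54.7%, 8.70% had any of the 7 motifs (2.42 to 26.8), 13.0% had the ZEB and SNAI E-box, and 0 had an AP-1 match (interval up to 14.3%).

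The members lay in 1510 protein-coding genes, or 7.54% of the 20033 annotated ones, and 1295 of these genes held a single member. Host genes were long, with a median of 93.8 kb against 27.5 kb for all protein-coding genes. Of the 3667 genes of at least 100 kb, 19.9% hosted a member. Only 5.21% of the members had another member within 10 kb, and the median distance to the next one was 229 kb. A gained intragenic region was present in 57.0% of the host genes, and in 5608 of all 20033 protein-coding genes. In genes of at least 100 kb the share was 85.6% for hosts and 76.3% for the others, without matching for length among them.

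After TTC34, 8 genes held 4 members each. They were ADARB2, a brain-expressed relative of the RNA editing enzymes, CAMTA1, a transcription activator gene, COL23A1, a transmembrane collagen gene, ENSG00000285053, FOXN3, a forkhead repressor gene, PTPRN2, a phosphatase-like protein of secretory granules, SIPA1L3, a gene of cell polarity, and TLN2, a talin gene. Of these genes FOXN3 had 5 gained and 4 shared intragenic regions, PTPRN2 had 8 and 1, and SIPA1L3 had 4 and 11. In TLN2 the folds of the 4 members were 3.19 to 4.39 in DMSO replicate 1 and 3.07 to 3.99 in replicate 2, over 302 kb. In FOXN3 they were 2.97 to 4.15 and 2.64 to 3.40, over 297 kb. In both genes the members were thus far apart.

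Gene lists of pathways and cell types were set against all protein-coding genes. Since long genes hold more regions, the number of hosts that the lengths of a list's genes would give at the rate of all genes is added. No list was tested. Lengths do not allow for how many open regions of any kind a gene holds. Of all 20033 genes, 5608 held a gained intragenic region and 4778 held one called in all 4 lists. Of the 35 WNT genes, 20 held a gained one and 17 held one called in all 4 lists. In the WNT pathway list 9 of 35 genes (25.7%) hosted 12 members, where lengths would give 3.81. They include LRP5, a WNT co-receptor, with folds of 4.72 and 3.37 in intron 1 and 2.81 and 2.97 in intron 13, the ligand genes WNT3 (2 members, folds of 2.87 to 3.32) and WNT5B (4.01 and 4.48), and the receptors ROR1 (4.98 and 3.53), ROR2 (2 members, 3.15 to 4.33) and RYK (3.52 and 3.12). The nuclear effectors TCF7L1, TCF7L2 and LEF1 held 1 each, with folds of 2.76 to 3.81. Genes from ligand to effector were thus present, each with 1 or 2 members. Those of WNT5B, ROR1 and TCF7L1, the intron 1 member of LRP5 and 1 of the 2 in ROR2 lay above the members' median fold in both libraries.

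Of 25 pancreatic progenitor genes, 5 hosted a member, where lengths would give 2.45. Gained intragenic regions were held by 15 of the 25 genes, and intragenic regions called in all 4 lists by 13. Among the hosts of a member, MEIS1, a homeobox cofactor gene, had 15 reads in each library at folds of 3.90 and 3.53. TEAD1 and TCF7L2 were also on other lists. Of 31 endocrine and islet genes 1 hosted members, PTPRN2, where lengths would give 2.16. Of 22 liver genes, 14 AP-1 subunit genes and 12 pluripotency genes none did, where lengths would give 0.905, 0.369 and 0.514, so that no host is near what these short genes would give.

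Genes that link cells to matrix, neighbours and the cytoskeleton, and the Hippo pathway that responds to them, were covered by 5 lists. In the Hippo list 5 of 24 genes had a member, where lengths would give 3.26. They were YAP1, the co-activator at the end of the pathway (17 and 14 reads, folds of 4.31 and 3.33), its DNA-binding partners TEAD1 (3.56 and 3.01) and TEAD3 (3.60 and 3.24), the junction protein AMOTL1 (3.61 and 3.61) and the TEAD co-factor VGLL4 (3.70 and 3.52). Integrins had 4 of 20 hosts (lengths 2.40), namely ITGA1, ITGA8, ITGA9 with 2 members and ITGB5, with folds of 2.50 to 3.97. Matrix genes had 3 of 26 (lengths 2.99), namely LAMA3 with 2 members, COL4A1 (4.98 and 3.71) and COL18A1. Junction genes had 5 of 25 (lengths 3.98), with CDH3, CDH4, PARD3 and NRCAM among them. Cytoskeleton genes had 6 of 30 (lengths 5.63), namely LPP, DOCK1, DOCK9, PALLD, SVIL and FHOD3, a formin gene with 3 members at folds of 3.12 to 4.19.

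Other signalling lists hosted members as follows. In the TGF-β and BMP list 3 of 29 genes had members (lengths 3.72), the receptor genes TGFBR2 (4.77 and 4.01 in intron 1, 3.73 and 2.76 in coding exon 4) and BMPR2 (4.792 and 4.499) and the latency gene LTBP1 (4.13 and 2.86). The EGF and FGF list had 5 of 33 (lengths 3.62), the receptor ERBB3 with 41 and 34 reads, its ligand NRG1 (5.00 and 3.77), the feedback inhibitor SPRY2, and the transducers GAB2 (5.17 and 3.61) and MAP2K1. The Notch list had 4 of 33 (lengths 2.85), the receptor NOTCH3 with 2 members (3.92 and 3.05, 3.22 and 2.78), the ligand DLL3, the co-activator MAML3 and the sheddase ADAM17.

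In lists of other cell types and processes, with the number that lengths would give, the hosts were GRHL2 in the duct and surface epithelium list (1 of 26, lengths 1.84), and RUNX1 with 3 members and RUNX2 in the mesenchyme list (2 of 27, lengths 2.50). They were CDH17 and another gene in the intestine and stomach list (2 of 17, lengths 0.972), PECAM1 and EMCN in the endothelium list (2 of 10, lengths 1.57), and RBFOX1 and DLG2 in the neuron list (2 of 16, lengths 3.60, with 5 members). RELB stood for the inflammation list (1 of 25, lengths 1.18), MAX for the list of BET proteins, P-TEFb and MYC (1 of 17, lengths 0.977), and CDK14 and another gene for the cell cycle list (2 of 17, lengths 1.30). Their folds ranged from 2.71 to 5.05.

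The regions called in all 4 lists give a measure in the same genes that the rule did not use. Their fold enrichments were replaced by ranks within the list and then by normal scores, and limma with Benjamini-Hochberg adjustment compared 2 against 2 libraries over 25627 regions. With I-BET151, 3.41% of all regions were higher in rank and 1.96% lower at an adjusted p under 0.05. Within host genes, including 3 kb before their starts, 109 of 2770 regions were higher (3.94%) and 34 lower (1.23%). At the starts of host genes 27 of 843 were higher (3.20%) and 11 lower (1.30%), where all protein-coding gene starts had 2.76% and 1.29%. Within 10 kb of a member 15 of 375 were higher (4.00%) and 7 lower (1.87%). The share of higher regions in the host genes was thus close to that of all regions tested, and the share of lower regions was smaller. Among intragenic regions alone, 4.07% were higher and 1.25% lower in host genes, against 3.83% and 1.86% of all intragenic ones. No test compared these shares.

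The calls depended on the measure and the scale. By ranks of −log10 p in place of fold, 35 of the 25627 regions were called, 8 higher and 27 lower, and 1 of them, higher, lay within host genes. At an unadjusted p under 0.05 there were 4659 of the 25627, and 524 of the 2770 within host genes. Of the calls within host genes 76.2% were higher by ranks, and of all calls 63.5%. With log2 reads per M centred on the median of each library, 13 regions within host genes were higher (0.469%) and 160 lower (5.78%). Over all regions the shares were 0.679% and 4.64%. Of the calls in this setting, 7.51% were higher within host genes and 12.8% among all regions. Without DMSO replicate 1 the ranks gave 22 higher and 6 lower regions in host genes, and without I-BET151 replicate 2 they gave 217 and 161.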

How the data were processed

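ATAC-seq was done on 2 DMSO and 2 I-BET151 libraries. The authors aligned reads to hg38 with Bowtie2 2.2.5 and called peaks per library with MACS2 2.1.2 without a control, and the deposited lists give per peak a fold enrichment (a ratio of pileup to local background), −log10 p, −log10 q and a score that was not used. The stated threshold was a p-value of 1e-05, while the deposited lists reach weaker p-values and a q-value of 0.05.

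Peaks of the autosomes (1 to 22) and of X and Y were joined where they shared 1 bp or more, and the summit with the highest fold gave the position. Pileups were solved from fold and p-value as whole reads. Reads per library came from the MACS2 background, the shortest peak and the default genome size, so depth is an estimate. Gene positions are those of GENCODE 44, and sequences were read from the hg38 genome. Windows spanned 100 bp on each side of the summit, so the groups compared for GC, CpG and motifs had windows placed by summits of different libraries. Recurring words are 12-base words within 500 bp, and multi-copy words are 24-base words with more than 1 copy in the genome. Shares have 95% Wilson intervals. Regions called in all 4 lists were compared with limma 3.58.1 in R 4.3.3, and other steps used Python 3.11.15. Scripts were tested on simulated data.

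The members, gene lists and motifs were chosen with earlier results of these data known. Named genes are the hosts of the 12 members with the highest lower DMSO fold, the 8 genes with the most members after the first, list genes with a member, and members at the limits of the rule. Some members, and the sequences of some, are not reported here. With 2 libraries per group an exact permutation test cannot give a p below 0.33, so none is reported, and p-values measure only the spread between these libraries, which may be technical. Replicate numbers come from the titles and mark no stated shared batch. Deviations of same-numbered libraries correlated at r = -0.14 across regions, so the main fit has no block.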

Additional observations from a re-analysis of the deposited data

How the results depend on the processing

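The number of members, 1669, was 45 with a −log10 p of at least 10 required in all 4 lists and 23 with it required in the DMSO lists only. Leaving out 1 library gave 1726 to 15418, the latter without DMSO replicate 2, with 2519 without DMSO replicate 1 and 3441 without I-BET151 replicate 2. The other alternatives gave counts within 1.5 times. With the replicate block, that is a call in DMSO and none in I-BET151 within each pair, 1722 regions were found, against 21180 in pair 1 alone and 2593 in pair 2 alone. The share in introns, 77.3%, was 84.9% by exons of any transcript, 82.6% in the 23 members with a −log10 p of at least 10 in both DMSO lists and 77.3% to 79.8% with 1 library left out.

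The share with any of the 7 motifs, 17.02%, was 9.17% and 37.6% within 50 and 250 bp of the summit, 8.70% in those 23 members, and 16.9% to 32.6% with 1 library left out, the highest without I-BET151 replicate 2. The members stayed below the regions called in all 4 lists, by 21.9 points, and by 12.7, 24.1 and 30.2 points in the same 3 settings, 16.6 at equal GC and 16 at equal GC and fold. The 30.2 points set those 23 members against all regions called in all 4 lists, without the same limit on p. Without I-BET151 replicate 2 the gap was smaller, with 32.6% against 38.9% in the regions called in all 4 lists. The share callable at unchanged density, 30.9%, was 54.1% from the mean of the DMSO pileups, 0.0599% at the lower Poisson limit, 100% with the median shift and 100% with both.

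The 143 calls within host genes (109 higher, 34 lower) became 173 (125 and 48) with the replicate block, 1 (1 and 0) by ranks of −log10 p, and 173 (13 and 160) by median-centred log2 pileup. At 2 against 1 libraries they ranged from 28 to 378, with 22 to 217 higher and 6 to 161 lower, and the lone library was assumed to vary like the others. A crossed replicate block, added after seeing the data, gave 376 calls, 247 higher and 129 lower. The word-based repeat measures, the fold standardisation and the combined scaling were also chosen after seeing the data. Without repeated windows 1629 members were left. The causes of these changes were not tested, and depth limits any statement on members that scaled to fewer reads than the I-BET151 lists could call.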
